A study of Mus musculus with 14 samples.

Results

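Differentiated gallbladder organoids were compared with small intestine organoids, 2 arrays against 2, in every gene that the array names by a single symbol. These 4 arrays belong to a set of 14, 2 in each of 7 groups, and 19938 genes were tested. Organoids are spherical epithelial cultures started from tissue, and all material came from C57BL/6 mice. The growth protocol is the same for all organoids in the labels. They grew in Matrigel in AdDMEM/F12 medium with B27, N2, N-acetylcysteine, EGF, FGF10, HGF and nicotinamide, with conditioned media that supplied R-spondin 1 and noggin. The differentiated gallbladder organoids were then kept for 2 weeks in medium lacking nicotinamide, noggin and R-spondin 1, a step that the labels do not record for the small intestine organoids. The groups therefore differ in organ and in medium, and the effects of organ and medium cannot be told apart in this comparison. Undifferentiated gallbladder organoids, which stayed in the full medium, and liver organoids are set beside them where they bear on a gene, and so are gallbladder and small intestine tissue. Nothing in the labels says whether the 2 arrays of a group came from separate animals or cultures. The p-values rest on the spread within groups pooled over all 14 arrays, tissues included, and this spread may be technical.

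The small intestine is lined by a single layer of epithelium that is renewed from Lgr5-positive stem cells in the crypts, under strong Wnt signalling. Its absorptive enterocytes carry a brush border of digestive enzymes and transporters, and its secretory cells are Paneth, goblet, enteroendocrine and tuft cells. The gallbladder epithelium is a bile duct type of epithelium that stores and concentrates bile, absorbs salt and water, and coats itself with mucus. Both derive from embryonic endoderm, where Cdx2 directs intestinal fate and Sox17 and Hhex take part in forming the gallbladder and bile ducts. R-spondin 1 strengthens Wnt signalling, noggin blocks BMP signalling, and nicotinamide is a precursor of NAD. Removing them takes away signals that keep organoid stem cells dividing.

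Values are RMA signals on a log2 scale, so a difference of 1 means a change by a factor of 2. Replicates correlated across genes at r = 0.998 in differentiated organoids and 0.997 in small intestine organoids, and a gene's pooled SD between replicates was 0.0952 and 0.128 log2 units. The number of arrays limits the precision, and with no detection call used here the noise floor is unknown. The cell type labels were checked on marker genes. The intestinal markers averaged 12.30 and 12.47 in small intestine organoids against 7.31 on both arrays of differentiated gallbladder organoids, and 10 of 10 were called lower there. Of the biliary markers 8 of 10 were measured, of which 4 were called higher in differentiated gallbladder organoids and 2 lower. These markers averaged 11.68 on both arrays against 10.50 and 10.59 in small intestine organoids. Epcam and Krt19, which mark simple epithelium of many organs, were high in both. Epcam measured 12.41 and 12.34 against 12.50 and 12.60, a difference of -0.18 with a 95% interval from -0.59 to 0.24. Krt19 measured 13.68 on both arrays against 13.11 and 13.12 (difference 0.56 ± 0.12, SE, limma adjusted p = 0.00476). Markers of fibroblasts, smooth muscle and endothelium averaged between 6.27 and 7.02 in these organoids, with 0 of 14 called in the fit used here. In gallbladder tissue they averaged between 8.61 and 13.35. The 5 immune cell markers averaged 7.34 and 7.37 against 6.39 and 6.40 in small intestine organoids, with 2 called higher. The 5 hepatocyte markers averaged 7.98 and 8.07 against 9.22 and 9.34, with 1 called higher and 2 lower.

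Of the 19938 genes, 3253 (16.3%) were called higher in differentiated gallbladder organoids than in small intestine organoids and 2733 (13.7%) lower, with limma at an adjusted p below 0.05. The median difference over all genes was 0.06. At least 1 log2 unit separated the groups for 1313 of the genes called higher and 1216 of those called lower, and at least 4 log2 units for 96 and 137. The count of genes called higher depended on single arrays, with 2137 without differentiated replicate 2 and 2135 without small intestine organoid replicate 2. It was 5583, with 4541 called lower, when the 8 organoid arrays alone were fitted. In the fit used here all groups share one estimate of the spread, and the pooled SD between tissue replicates was 0.368 in small intestine and 0.404 in gallbladder. The fit to the 8 organoid arrays, called the organoid-only fit from here on, is given beside a list where it moved a count by over 1.5 times. In the tests that follow these percentages are the background against which counts of a gene list are read. The lists were drawn up with earlier results of these data known, so their counts describe the lists.

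Muc1, a membrane-bound mucin of ductal and glandular epithelia, had the largest difference in the higher direction. It measured 13.78 and 13.82 in differentiated gallbladder organoids against 6.18 and 6.07 in small intestine organoids (difference 7.68 ± 0.40, SE). Gabrp, the pi subunit of the GABA-A receptor, measured 13.75 and 13.76 against 6.24 and 6.49, a difference of 7.39 ± 0.18. Both genes were near the top of the scale in one group and near its lower end in the other. The next in order were Efemp1, an extracellular matrix protein (6.67), Ly6d, a surface protein of squamous and progenitor epithelium (6.44), Cxcl5, a neutrophil-attracting chemokine (6.42), and Lbp, which binds bacterial lipopolysaccharide (6.29). Il1a, an epithelial alarm cytokine, followed at 6.13. Ctse, a gastric-type protease, stood at 6.07 and Ltf, the iron-binding protein lactoferrin, at 6.04. Aspa, an enzyme that splits N-acetylaspartate, differed by 5.92. Lcn2, which withholds bacterial iron carriers, differed by 5.81. Ecm1, Scara3, Sptssb and Pamr1 differed by 5.62, 5.61, 5.61 and 5.60. The 2 arrays of one group lay apart from the 2 of the other for each of these 15 genes, which the rule for choosing them required.

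In the lower direction Defa24, an alpha-defensin, measured 3.71 and 3.62 against 13.51 and 13.44 (difference -9.81 ± 0.29, SE). Alpha-defensin genes are near-identical copies, so this probe set may read several of them, and the same holds for the lysozyme genes Lyz1 and Lyz2 and for the Cyp2c genes named further on. Sis, the brush border sucrase-isomaltase, measured 5.0 and 5.08 against 13.44 and 13.38 (difference -8.37 ± 0.11). Lyz1, the lysozyme of Paneth cells, measured 6.67 and 6.85 against 13.96 and 14.05 (difference -7.25 ± 0.21). For these 3 genes the differentiated gallbladder organoids read what the undifferentiated ones read, within 0.51 log2 units, and none of the 3 comparisons with the undifferentiated organoids was called. The other leading genes were 2010106E10Rik (-7.19), the drug-metabolising Cyp3a11 (-7.04), the liver-type fatty acid binding protein Fabp1 (-7.01), the gluconeogenic Fbp1 (-6.94), the apolipoprotein Apoa1 (-6.63), and the brush border enzymes Alpi (-6.62), Anpep (-6.58) and Mme (-6.53). Otc, an enzyme of the urea cycle, the lectin Itln1, the goblet cell protein Zg16 and Clca4b completed the 15, at -6.55, -6.52, -6.48 and -6.40.

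**Figure D1:**
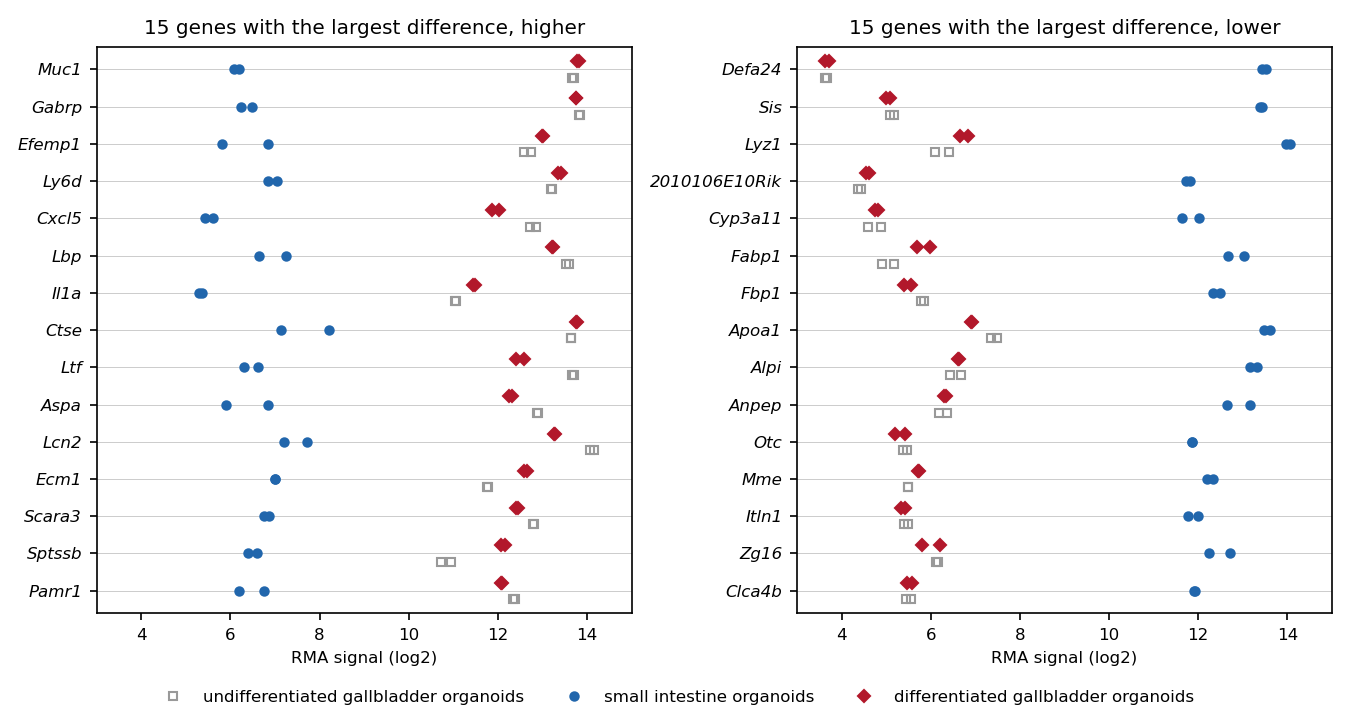
Log2 RMA signal of 30 genes, the 15 called highest and the 15 called lowest by difference, with each array as a point: filled diamonds for differentiated gallbladder organoids, filled circles for small intestine organoids and open squares for undifferentiated gallbladder organoids. Muc1 sits at 13.78 and 13.82 against 6.18 and 6.07, and Sis at 5.0 and 5.08 against 13.44 and 13.38, with the undifferentiated gallbladder organoids on the side of the differentiated ones in each of the 30 genes.

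The stretches of 200 bases before the start of 4 genes are shown because Sis, Alpi and Fabp1 stand for the enterocyte genes that were low in gallbladder organoids and Muc1 led the genes that were high. They come from RefSeq on mouse build GRCm38.p6 and are printed 5′ to 3′ on the strand of the gene. Capitals mark matches on either strand to 5 short motifs, which may overlap. Factors of the Cdx family can bind the core TTTATG. An Hnf1 half-site reads GTTAAT and one form of the Hnf4 site reads CAAAGTCCA. Onecut factors can bind ATCAAT. The TATA box was searched as TATAAA. Sis lies on the minus strand at chr3:72967864-72968063, Alpi on the minus strand at chr1:87101607-87101806, Fabp1 on the plus strand at chr6:71199679-71199878 and Muc1 on the plus strand at chr3:89228856-89229055.
Sis: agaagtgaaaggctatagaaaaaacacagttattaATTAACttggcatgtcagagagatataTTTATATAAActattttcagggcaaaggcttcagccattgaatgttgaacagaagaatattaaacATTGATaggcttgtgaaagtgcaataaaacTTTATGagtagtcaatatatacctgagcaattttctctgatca
Alpi: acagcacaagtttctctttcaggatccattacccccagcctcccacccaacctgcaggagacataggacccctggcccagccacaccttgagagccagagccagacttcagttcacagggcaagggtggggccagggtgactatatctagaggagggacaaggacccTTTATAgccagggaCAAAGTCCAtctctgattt
Fabp1: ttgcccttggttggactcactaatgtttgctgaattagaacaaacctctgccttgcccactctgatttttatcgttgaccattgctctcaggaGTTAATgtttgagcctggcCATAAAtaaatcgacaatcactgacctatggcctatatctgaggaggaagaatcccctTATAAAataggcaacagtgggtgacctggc
Muc1: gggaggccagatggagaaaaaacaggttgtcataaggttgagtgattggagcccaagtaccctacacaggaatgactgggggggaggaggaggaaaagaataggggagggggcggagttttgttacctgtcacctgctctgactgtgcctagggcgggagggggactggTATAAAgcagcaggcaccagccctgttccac

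The Cdx core began 43 bases before the start of Sis and 88 bases before that of Fabp1, and the Hnf4 site 19 bases before that of Alpi. The stretch of Muc1 held the TATA box, 31 bases before the start, and none of the other 4 motifs. Over 27025 mouse genes with such a stretch, 9.9% held the Cdx core, 5.9% the Hnf1 half-site, 0.4% the Hnf4 site, 6.0% the Onecut core and 11.7% the TATA box. Of the 15 genes with the largest difference in the lower direction 13 had an entry, and 4, 3, 2, 1 and 4 of them held these motifs in the same order. Of the 15 in the higher direction 9 had an entry, and 1 held the Cdx core and 4 the TATA box. Over the larger set of 33 brush border and lipid genes called lower, 12.1% held the Cdx core, 12.1% the Hnf1 half-site, 6.1% the Hnf4 site, 3.0% the Onecut core and 33.3% the TATA box, so that the Cdx core stood near its share among all genes. The genes and motifs were chosen after their values were seen, a match is not a tested binding site, and the absence of a match says nothing about a factor.

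Most members of 3 lists of nutrient absorption genes were called lower in differentiated gallbladder organoids. Of the 23 measured genes of brush border hydrolases and structure, 19 were called lower and 0 higher, with a median difference of -3.20. Besides Sis, Alpi and Anpep the list was led by Mep1b and Mep1a, the subunits of the protease meprin. Mep1b measured 6.02 and 5.92 against 11.25 and 10.92, and Mep1a 5.77 and 5.78 against 10.88 and 10.49. Vil1, the actin-bundling villin of microvilli, was called lower by a smaller amount, with 11.32 and 11.29 against 12.42 and 12.35. In this list 1 member was called higher without either small intestine tissue array and in the organoid-only fit.

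Among 25 nutrient transporters 15 were called lower and 1, the zinc importer Slc39a4, higher (median -1.29). Slc5a1, which takes up glucose with sodium, measured 6.64 and 6.56 against 12.77 and 12.71 (difference -6.14 ± 0.27, SE). The peptide transporter Slc15a1 measured 6.13 and 5.99 against 11.26 and 11.08 (-5.11 ± 0.20), and the fructose transporter Slc2a5 6.67 and 6.32 against 11.01 on both arrays (-4.52 ± 0.47). Slc6a20a and Cybrd1, a carrier of proline and an iron reductase, differed by -4.39 and -4.23. The count of transporters called higher moved with single arrays. It was 0 without any one of the 4 arrays compared, 2 without either liver tissue array or either gallbladder tissue array, 3 without either small intestine tissue array, and 5 in the organoid-only fit.

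Of 28 genes of dietary lipid handling 20 were called lower and 3 higher (median -3.36). Fabp1 measured 5.98 and 5.69 against 12.67 and 13.02, and the intestinal Fabp2 6.25 and 6.71 against 12.66 and 12.60. Apoa1, the main protein of high-density lipoprotein, measured 6.92 and 6.90 against 13.61 and 13.47. The carboxylesterase Ces2e and the retinol-binding Rbp2 differed by -6.29 and -5.88. The 3 members in the other direction were Fabp7, with 9.77 and 9.87 against 5.85 and 5.81, the cholesterol exporter Abca1, with 10.22 and 10.30 against 7.05 and 6.84, and Fabp5. These 3 are not restricted to enterocytes, and the same holds for the liver-type Fabp1 among the members called lower. In the undifferentiated organoids Fabp7 read 6.35 and 6.18.

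Of 51 measured enzymes of drug and alcohol metabolism 25 were called lower (median -1.37), against a background of 13.7%. The 8 called higher were near the background of 16.3%. Cyp3a11 measured 4.81 and 4.75 against 12.02 and 11.63, Cyp2c29 5.23 and 5.79 against 11.99 and 11.76, and Cyp2c66 7.22 and 7.24 against 13.35 and 13.46. Adh4 and Aldh1b1, which oxidise alcohols and aldehydes, differed by -5.87 and -5.70. In the higher direction stood Cyp2f2, with 11.92 and 11.59 against 6.68 and 6.77, and the sulfotransferase Sult1c2, with 13.00 and 13.03 against 9.61 and 9.53. Both were lower in undifferentiated gallbladder organoids, with 7.09 and 7.29 for Cyp2f2 and 9.62 and 9.65 for Sult1c2. Of the 51 enzymes 18 were called higher in differentiated than in undifferentiated gallbladder organoids and 1 lower, where 2.8% of all genes were called higher and 1.93% lower.

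Most Paneth, goblet and enteroendocrine genes were called lower, and tuft cell genes were not. Paneth cell products were measured in 10 of 20 cases, and 7 were called lower and 3 higher (median -4.65). Lyz1, Defa24, Itln1 and Clps, the pancreatic-type colipase, were far lower. Clps measured 7.67 and 7.71 against 13.11 and 12.70. Pla2g2a, a phospholipase of Paneth cells, measured 6.07 and 6.30 against 9.33 and 13.28, so that the small intestine arrays differed from each other. Its call (difference -5.12 ± 1.51, SE, limma adjusted p = 0.0268) was lost without small intestine organoid replicate 2 (0.225) and without either differentiated array (0.116 and 0.0992). The 3 members called higher, Mmp7, Habp2 and Nupr1, are not restricted to Paneth cells. Neither is Lyz2, which was called lower and is also in the list of immune cell markers. Mmp7, the protease that activates alpha-defensins in mice, is also made by ductal epithelia.

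Among 20 goblet cell products and regulators 13 were called lower and 2 higher (median -1.78). Muc2, the gel-forming mucin of the intestine, measured 6.59 and 6.51 against 11.28 and 10.64 (difference -4.41 ± 0.28, SE). Agr2, which helps to fold mucins, measured 7.17 and 7.22 against 12.59 and 12.64, and Zg16 6.2 and 5.80 against 12.72 and 12.24. The lineage regulator Atoh1 read 6.82 and 6.85 against 10.29 and 10.30. The members called higher, St3gal6 and Sytl2, were no longer called without any one of the 4 arrays compared. One of them was called without either undifferentiated gallbladder organoid array or either liver organoid array, and when arrays were centred on their medians.

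Of 27 enteroendocrine hormones and regulators 21 were called lower and 0 higher (median -1.80). When the dimmest 40 percent of all genes were left out of the test, 7 were called lower. That filter goes by the mean signal over all 14 arrays, and members of any list that it removes are not tested. It left 195 of the called genes named in this text, with Cdkn1b not counted, and 195 kept their call. Tac1, the precursor of substance P, measured 4.39 and 4.48 against 10.54 and 9.95. The granule proteins Chgb and Chga differed by -5.56 and -4.47. The hormone genes Gip and Gcg, which encode the glucose-dependent insulinotropic peptide and glucagon, differed by -4.89 and -4.63. Neurog3, which starts the endocrine programme, measured 6.06 and 5.97 against 9.19 and 8.97. For these 5 products the undifferentiated gallbladder organoids differed from the differentiated ones by 0.34 log2 units or less. In that comparison 0 of the 27 members were called in either direction, where 2.8% of all genes were called higher and 1.93% lower.

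Tuft cells, which sense taste-type and parasite signals, gave another picture. Of 24 tuft cell genes 3 were called higher in differentiated gallbladder organoids than in small intestine organoids and 2 lower, near the background of 16.3% and 13.7%. Against undifferentiated gallbladder organoids 11 of the same 24 genes were called higher and 0 lower, where 2.8% and 1.93% of all genes were called. Gnat3, the taste-type G protein gustducin, measured 9.25 and 8.86 in differentiated gallbladder organoids against 4.56 and 4.46 in small intestine organoids (difference 4.55 ± 0.29, SE) and 4.44 and 4.63 in undifferentiated gallbladder organoids. It was thus high only in the differentiated set of these 3, and liver organoids read 8.99 and 8.39. Rgs13 measured 10.75 and 10.48 against 10.42 and 9.43, with 5.07 and 4.78 in undifferentiated organoids. Its difference from small intestine organoids was 0.69, with a 95% interval from -0.09 to 1.48 and an adjusted p of 0.177, and it became a call without small intestine organoid replicate 1 (0.0423). Trpm5, the cation channel of taste transduction, measured 8.80 and 8.62 against 9.14 and 8.25, with 6.81 and 6.33 in undifferentiated organoids. Its difference was 0.01, with an interval from -0.62 to 0.64, and the groups overlapped. Dclk1, a kinase used as a tuft cell marker, measured 9.78 and 9.51 against 9.10 and 8.24. Its call (difference 0.98 ± 0.27, adjusted p = 0.0206) was lost without differentiated replicate 1 (0.133), differentiated replicate 2 (0.0531) or small intestine replicate 2 (0.18). Leaving out small intestine organoid replicate 1 gave 5 members called higher, and leaving out any other array of the 4 gave 1. The organoid-only fit called 8 higher and 3 lower. Il17rb, the receptor for interleukin 25, was among those called lower, with 6.79 and 6.66 against 7.74 and 7.83 (adjusted p = 0.00914), and lost its call without differentiated replicate 2 (0.0634) or small intestine replicate 2 (0.0598). The count of 2 members called lower became 1 without any one organoid array other than differentiated replicate 2, without which it was 0, and 1 without either liver tissue array or with quantile normalisation. In bulk samples, fewer cells of a type and less RNA per cell cannot be told apart.

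**Figure D2:**
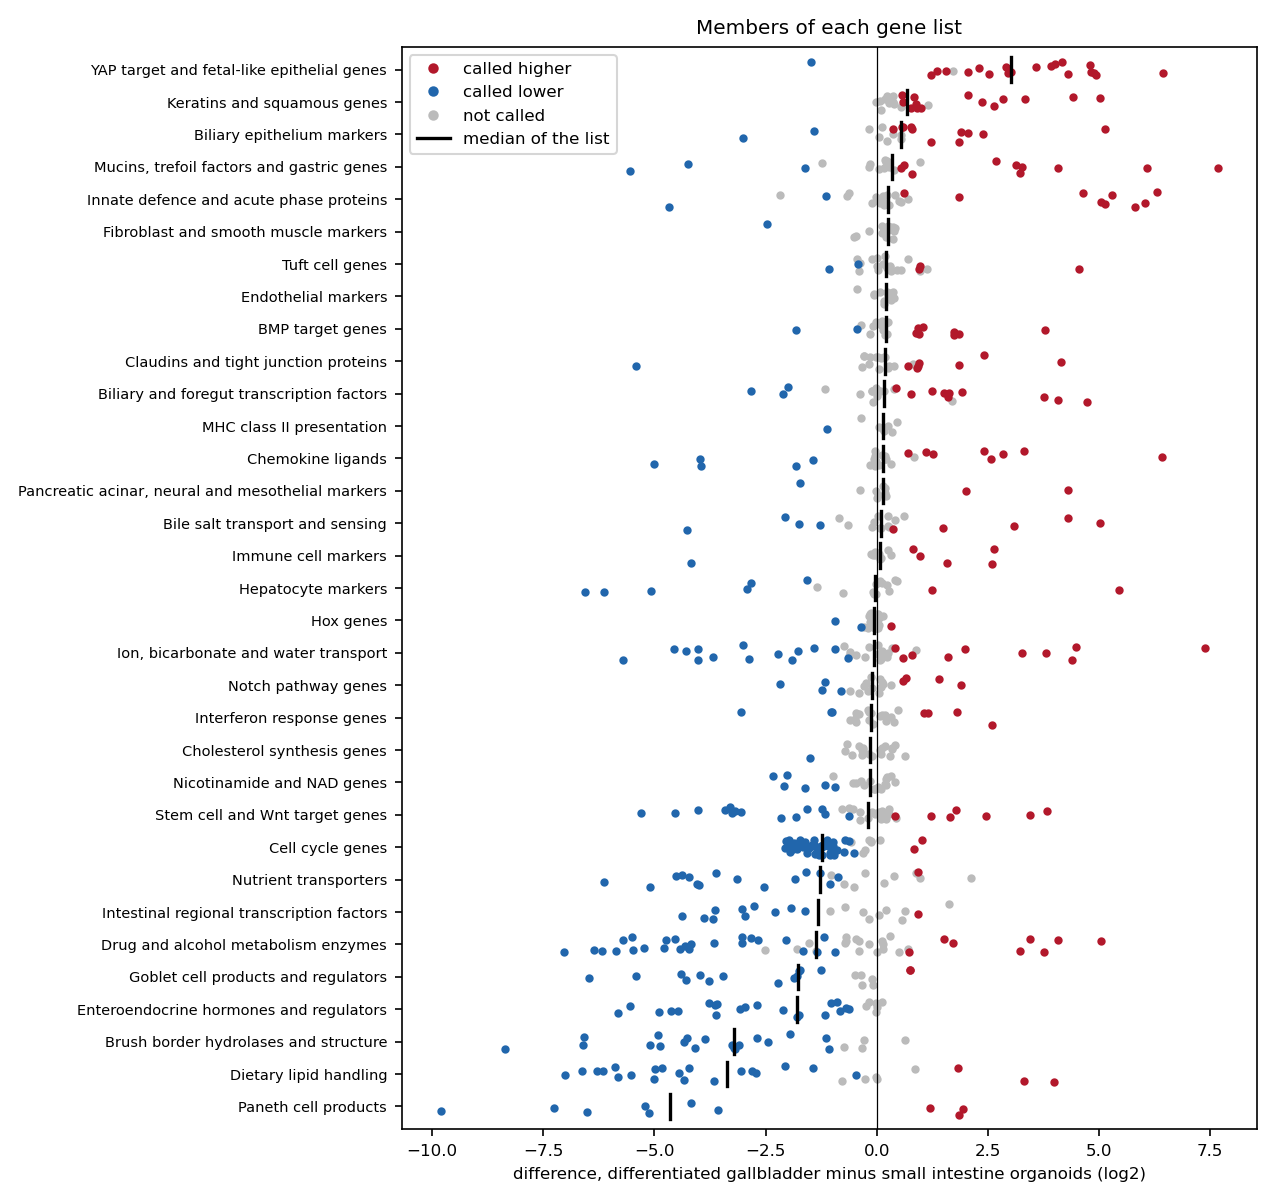
Difference between differentiated gallbladder and small intestine organoids (log2) for each measured member of the 33 gene lists, ordered by the median of the list, which is drawn as a black bar; red points were called higher, blue points lower and grey points were not called. Paneth cell products, dietary lipid handling and brush border genes lie lowest, with medians of -4.65, -3.36 and -3.20, and YAP target and fetal-like epithelial genes highest, with a median of 3.02.

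Of 39 stem cell and Wnt target genes 14 were called lower (median -0.19), against a background of 13.7%. The 7 called higher were near the background of 16.3%. Lgr5, an R-spondin receptor and the marker of crypt stem cells, measured 7.28 and 7.17 against 12.63 and 12.44 (difference -5.31 ± 0.40, SE, limma adjusted p = 4.91e-06). Undifferentiated gallbladder organoids lay between them at 10.56 and 10.18, and the comparison of differentiated with undifferentiated organoids was called (-3.15, adjusted p = 0.00142). Axin2, which Wnt signalling induces and which restrains it, measured 7.98 and 7.74 against 11.05 and 11.03, with 8.55 and 8.41 in undifferentiated organoids. The crypt genes Smoc2 and Aqp4 differed by -4.54 and -4.01, and Ascl2, a transcription factor of the Lgr5-positive cells, measured 7.02 and 6.84 against 10.20 and 10.18. For Smoc2, Aqp4 and Ascl2 the undifferentiated gallbladder organoids read 7.63, 5.66 and 6.79 or lower. Of 5 Wnt ligands in the list Wnt7a, Wnt7b and Wnt4 were called higher, Wnt3 lower (-1.15), and Wnt11 was not called (0.28, adjusted p = 0.236, or 0.0395 in the organoid-only fit). Wnt7a measured 10.45 and 10.46 against 6.55 and 6.70, and Wnt7b 10.64 and 10.42 against 7.09 and 7.08, and Wnt4 differed by 1.78. Cd44 and Ccnd1, an adhesion receptor and a cyclin that Wnt signalling can induce, were also higher, by 2.46 and 1.64.

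Of 50 cell cycle genes 41 were called lower in differentiated gallbladder organoids and 2 higher (median -1.24). Mki67, made in dividing cells, measured 9.76 and 9.86 against 11.54 and 11.68 (difference -1.80 ± 0.22, SE). The mitotic motor Kif11 measured 9.29 and 9.31 against 11.30 and 11.45, and Nusap1, Top2a and Hmmr differed by -2.04, -1.98 and -1.97. The 2 members called higher were the cell cycle inhibitors Cdkn2b and Cdkn2a, at 1.02 and 0.85. Cdkn1b, also a cell cycle inhibitor, was among the members called lower (-1.24), and the inhibitor Cdkn1c was not called (-0.18). Against undifferentiated gallbladder organoids 0 of the 50 genes were called in either direction, where 2.8% of all genes were called higher and 1.93% lower. Mki67 read 9.13 and 9.21 in undifferentiated organoids (difference 0.64, limma adjusted p = 0.165).

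BMP signalling, which noggin blocks, and the Notch and NAD pathways were described by lists too. Of 21 BMP target and pathway genes 8 were called higher and 2 lower (median 0.20), against backgrounds of 16.3% and 13.7%. The ligand Bmp4 measured 10.58 and 10.50 against 7.06 and 6.47, and its target Id2 13.30 and 13.33 against 11.43 and 11.52. Smad7, which restrains the pathway, and the ligand Bmp8b were higher by 1.73 and 1.74, and the ligand Bmp7 was lower, with a difference of -1.82. For these 5 genes the comparison with undifferentiated organoids, which had noggin, was not called. Of all 21 members 1 was called higher in that comparison and 0 lower, where 2.8% and 1.93% of all genes were called. The counts became 5 higher and 1 lower without differentiated replicate 1 or small intestine organoid replicate 2. Of 21 Notch pathway genes 4 were called higher and 4 lower, near the backgrounds of 16.3% and 13.7%. The organoid-only fit called 8 of them lower. The ligand Jag1 measured 10.90 and 10.82 against 8.95 and 8.97 and the receptor Notch2 10.27 and 10.33 against 8.92 and 8.90, while the ligand Dll4 measured 6.87 and 6.66 against 8.96 and 8.93. Lfng and Nrarp, a modifier and a target of Notch, differed by -1.22 and -1.16. Of 23 nicotinamide and NAD genes 6 were called lower and 0 higher, against backgrounds of 13.7% and 16.3%. The organoid-only fit called 10 lower and 2 higher. Those called lower included Nadk2 (-2.34), Nnt (-2.08), Naprt (-2.01), Nadsyn1 (-1.62) and Parp1 (-1.16). Against undifferentiated organoids, which had nicotinamide, none of these 5 was called. Of all 23 members 1 was called lower in that comparison and 0 higher.

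Transcription factors of the 2 organs were divided by list. Of 20 measured intestinal regional factors 10 were called lower in differentiated gallbladder organoids and 1 higher (median -1.33). Cdx2 measured 8.02 and 7.93 against 12.36 and 12.35 (difference -4.38 ± 0.24, SE), and Cdx1 7.89 and 7.78 against 10.67 and 10.51 (-2.76 ± 0.23). Gata4, which sets the jejunal programme, measured 7.84 and 8.07 against 11.92 and 11.75 (-3.88 ± 0.29). Hnf4g, a nuclear receptor of enterocytes, measured 8.46 and 8.52 against 12.13 and 12.12 (-3.64 ± 0.21). It read 5.65 and 5.85 in undifferentiated gallbladder organoids, so that the differentiated ones stood between, 2.73 above the undifferentiated ones (adjusted p = 7.81e-05). Nr1i2, the xenobiotic receptor PXR, followed the same order with 8.45 and 8.48, 10.39 on both small intestine arrays, and 6.96 and 6.79 in undifferentiated organoids. Creb3l3, Vdr, Ppara, Isx and Maf differed by -3.69, -3.03, -2.96, -2.28 and -1.61. Tcf4, the basic helix-loop-helix factor E2-2, was the member called higher (0.92). Without either liver tissue array 2 members were called higher, without either gallbladder tissue array 3, and in the organoid-only fit 5.

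Of 25 biliary and foregut factors 10 were called higher and 3 lower (median 0.17), and 5 lower in the organoid-only fit. Hhex measured 10.86 and 10.84 against 6.30 and 5.93 (difference 4.74 ± 0.45, SE), Onecut1 10.72 and 10.83 against 6.89 and 6.53 (4.07 ± 0.19), and Sox17 10.05 and 10.27 against 6.51 and 6.28 (3.76 ± 0.18). These act in the formation of liver, bile ducts and gallbladder. Gata3, with 8.19 and 8.13 against 6.38 and 6.13, read 6.89 and 6.91 in undifferentiated organoids and was called higher in both comparisons. Onecut3, Meis1, Meis2 and Foxa2 were higher by 1.62, 1.59, 1.5 and 1.25. Ehf and Elf5 were called at 0.77 and 0.44, but Ehf lost its call when arrays were centred on their medians (adjusted p = 0.0748), and Elf5 when they were centred (0.11) or quantile normalised (0.0903). Leaving out any one of the 4 arrays compared ended the calls of Ehf, Elf5 and Foxa3 (adjusted p up to 0.148, 0.164 and 0.128). Leaving out a liver organoid array ended those of Ehf and Elf5, and leaving out an undifferentiated gallbladder array that of Ehf. The forkhead factors Foxa1 and Foxa3 and the T-box factor Tbx3 were lower, at -2.83, -2.12 and -2.01. Pdx1, a factor of duodenum, pancreas and biliary precursors, measured 8.38 and 8.27 against 9.62 and 9.38 and was not called (difference -1.17, 95% interval from -2.73 to 0.39, adjusted p = 0.255). Small intestine tissue, which shares the estimate of the spread, read 6.56 and 9.63, and without either of those arrays Pdx1 was called (5.04e-05). Sox2, a factor of stomach and oesophagus, stood between 5.79 and 5.88 on all 4 arrays (difference 0.06, interval from -0.21 to 0.33). Of 31 Hox genes 1 was called higher, Hoxd4 (0.33), and 2 lower, Hoxb2 (-0.95) and Hoxa5 (-0.36). Both counts lay below the backgrounds of 16.3% and 13.7%. Hoxd4 lost its call with quantile normalisation (0.155) and median centring (0.126), without either differentiated array (0.167 and 0.173), without either undifferentiated array (0.064), without small intestine organoid replicate 2 (0.357), and without any one liver array. Hoxa5 lost its call without any one of the 4 arrays compared, at adjusted p between 0.056 and 0.0816. Without either differentiated array or small intestine organoid replicate 2, 1 Hox gene was called lower, and with the dimmest 40 percent of genes left out 0 were called higher and 1 lower.

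**Figure D3:**
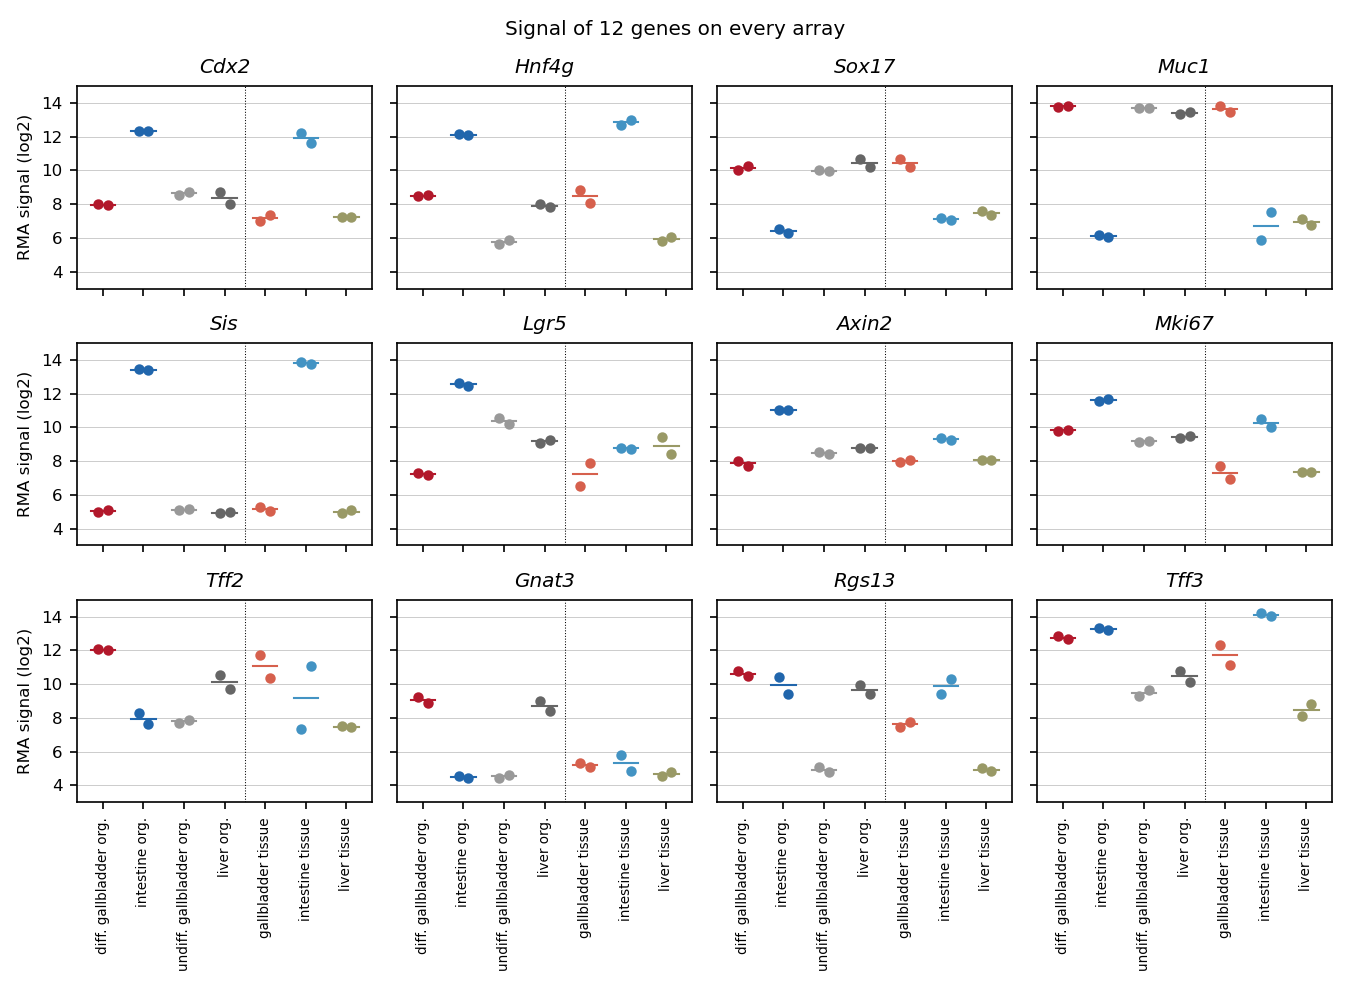
Log2 RMA signal of 12 genes on each of the 14 arrays, with 2 points per group, a line at the mean, and a dotted line between organoids and tissues. Cdx2 and Sis are high in small intestine organoids and tissue, and Sox17 and Muc1 in gallbladder organoids and tissue. Lgr5 reads 12.63 and 12.44 in small intestine organoids against 7.28 and 7.17 in differentiated gallbladder organoids. Rgs13 and Tff3 are lower in undifferentiated gallbladder organoids than in both organoid sets compared.

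Of 20 measured markers of biliary epithelium 11 were called higher in differentiated gallbladder organoids and 2 lower (median 0.56). Bicc1, an RNA-binding protein whose loss gives cystic bile ducts, measured 11.55 and 11.67 against 6.53 and 6.41 (difference 5.14 ± 0.13, SE). Krt7, the keratin of ductal epithelium, measured 13.29 and 13.21 against 11.28 and 11.14 (2.04 ± 0.22), and Pkhd1, the fibrocystin of primary cilia, 8.63 and 8.68 against 6.5 and 6.04 (2.39 ± 0.19). Pkhd1 and Jag1 were also called higher than in undifferentiated organoids, by 1.23 and 0.85. The members called lower were Cftr and Aqp1. The chloride channel Cftr measured 8.45 and 8.35 against 11.39 and 11.40 (-3.0 ± 0.21), and the water channel Aqp1 10.36 and 10.53 against 11.96 and 11.78. Without differentiated replicate 1 or small intestine organoid replicate 1 the count of members called lower was 1.

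Of 24 mucins and gastric-type genes 10 were called higher (median 0.34), against a background of 16.3%. The 3 called lower were near the background of 13.7%. Muc1 and Ctse led, the latter with 13.77 and 13.74 against 8.22 and 7.14. Tff2, a trefoil peptide of gastric and gallbladder mucus, averaged 12.05 against 8.31 and 7.62, with 7.72 and 7.89 in undifferentiated organoids. Its call (difference 4.08 ± 0.92, SE, adjusted p = 0.00711) was lost without small intestine organoid replicate 2 (0.0565). Small intestine tissue read 7.34 and 11.06 for this gene. Anxa10, a gastric annexin, showed the same order with 12.49 and 12.34 against 9.23 and 9.17, and 8.52 and 8.54 in undifferentiated organoids. In the lower direction stood the membrane mucin Muc13, with 6.89 and 7.0 against 12.51 and 12.47, and Gkn3, with 5.92 and 5.99 against 10.43 and 9.96. Muc3, a membrane mucin, measured 7.20 and 6.95 against 7.98 and 9.39. Its call (-1.61) was lost without differentiated replicate 1 (0.0633), differentiated replicate 2 (0.105) or small intestine organoid replicate 2 (0.159).

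Several epithelial defence genes were far higher in gallbladder organoids, differentiated or not. Of 28 innate defence and acute phase genes 9 were called higher and 2 lower (median 0.26), against backgrounds of 16.3% and 13.7%. Lbp measured 13.24 and 13.22 against 7.25 and 6.63, Ltf 12.41 and 12.57 against 6.61 and 6.29, and Lcn2 13.26 and 13.27 against 7.72 and 7.19. Wfdc2, a protease inhibitor of mucosal secretions, measured 12.47 and 12.43 against 7.09 and 7.22. The hydrogen peroxide-producing oxidase Duox2 and its maturation factor Duoxa2 were higher by 5.14 and 5.04. For Lbp, Ltf, Lcn2, Wfdc2 and Duox2 the undifferentiated organoids read as high or higher, and the comparison with them was not called. Of the 28 members 4 were called lower in differentiated than in undifferentiated organoids and 0 higher, where 1.93% of all genes were called lower. Cp, the copper-binding ceruloplasmin, measured 10.56 and 10.55 in differentiated and 13.03 and 13.02 in undifferentiated organoids, against 5.79 and 6.05 in small intestine organoids. In the lower direction Reg3a, a C-type lectin of Paneth cells and enterocytes, measured 5.62 and 5.48 against 10.16 and 10.28, and Pigr, which carries IgA across epithelium, differed by -1.14. The count of 2 became 1 without differentiated replicate 2 or small intestine organoid replicate 1, and 5 without either gallbladder tissue array and in the organoid-only fit.

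Of 26 chemokine ligands 8 were called higher and 5 lower, against backgrounds of 16.3% and 13.7%. Cxcl5 measured 11.86 and 12.01 against 5.43 and 5.60, and Cxcl16 12.22 and 12.30 against 9.06 and 8.85. Ccl25, which draws gut-homing lymphocytes, measured 7.90 and 8.18 against 13.09 and 13.01 (difference -5.01 ± 0.20, SE), although a second, dimmer probe set of the gene differed by -0.57. Ccl9 and Ccl6 differed by -3.97 and -3.95. The interleukin gene Il1a measured 11.45 and 11.48 against 5.30 and 5.37. Of 25 interferon response genes 4 were called higher and 3 lower, near the backgrounds of 16.3% and 13.7%. Oasl2 measured 10.20 and 10.32 against 7.86 and 7.46 and Irf8 7.37 and 7.06 against 10.24 and 10.31. The calls of Ifit3, Oasl1 and Mx1 (1.80, 1.16 and 1.06) were lost without single arrays. Without differentiated replicate 1 or small intestine organoid replicate 2 the count of members called higher was 1, without the other array of either group or either undifferentiated array it was 2, and 5 members were called lower without either small intestine tissue array and 8 in the organoid-only fit. Of 8 class II presentation genes H2-DMa alone was called, with a difference of -1.13. That call was lost without differentiated replicate 1 (0.0841) or small intestine organoid replicate 2 (0.0509), without either small intestine tissue array 1 member was called higher, and in the organoid-only fit 3.

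The list with the highest median held YAP target and fetal-like epithelial genes. These are genes that the regulator YAP can induce and genes seen in fetal or regenerating gut epithelium. Of the 21 measured, 19 were called higher and 1 lower (median 3.02). Ly6d measured 13.42 and 13.34 against 7.04 and 6.85 (difference 6.44 ± 0.34, SE). The matrix-associated Ccn2 measured 13.18 and 13.12 against 8.24 and 8.19 (4.94 ± 0.33), Ankrd1 10.71 and 10.90 against 6.04 and 5.80 (4.88 ± 0.21), and Anxa8 11.61 and 11.54 against 6.78 and 6.72 (4.83 ± 0.21). The gap junction protein Gja1 was higher by 4.8. Birc5, a mitotic protein that is also a cell cycle gene, was the member called lower, at -1.48. Against undifferentiated organoids 0 of the 21 were called in either direction, where 2.8% of all genes were called higher and 1.93% lower. Between gallbladder and small intestine tissue 14 of the 21 were called higher and 2 lower (median 1.05), where 20.7% and 24.3% of all genes were called. Anxa8 was not among those called higher, with 6.25 and 6.83 against 6.85 and 6.45.

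Of 26 keratins and genes of squamous epithelium 14 were called higher and 0 lower (median 0.68). With the dimmest 40 percent of genes left out 9 were called higher, and members removed by that filter were not tested. Between the tissues 2 were called higher and 8 lower, where 20.7% and 24.3% of all genes were called, so the count of 8 was near its background. Ivl, the cornified envelope protein involucrin, measured 11.24 and 11.27 against 6.12 and 6.35. Sprr1a measured 13.62 and 13.66 against 9.03 and 9.43, and Lor 9.55 and 9.72 against 6.84 and 6.76. The desmosomal Dsg3 measured 9.32 and 9.01 against 5.78 and 5.88, and the keratin Krt4 8.77 and 8.90 against 6.30 and 6.08. Dsg3 and Krt4 read 6.63 and 6.69, and 6.71 and 6.62, in undifferentiated organoids and were called higher there as well, by 2.50 and 2.17. Trp63, the master factor of squamous epithelium, stood between 6.67 and 6.94 on the 4 arrays (adjusted p = 0.585). Of 23 claudins and tight junction genes 7 were called higher and 1 lower, against backgrounds of 16.3% and 13.7%. The organoid-only fit called 4 of them lower. Cldn6 measured 10.48 and 10.57 against 6.46 and 6.30, and Cldn4 13.02 on both arrays against 11.32 and 11.04. Cldn15, which forms sodium pores in the intestine, measured 7.15 and 7.10 against 12.55 and 12.52. Cldn1 and Tjp1 were higher by 2.41 and 0.96.

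Of 40 genes of ion and water transport 10 were called higher, 14 lower and 16 not at all (median -0.07). The backgrounds were 16.3% higher and 13.7% lower. Beside Gabrp the higher genes were led by Car2, the carbonic anhydrase that supplies bicarbonate, with 13.23 and 13.17 against 8.68 and 8.76, and the calcium-activated chloride channel Ano1, with 12.19 and 12.11 against 7.91 and 7.59. The anion exchanger Slc26a9 followed with 10.36 and 10.25 against 6.54 and 6.44. The guanylin receptor Gucy2c measured 6.33 and 6.12 against 12.01 and 11.84, its ligand Guca2a 6.88 and 6.64 against 11.26 and 10.83, and the chloride-bicarbonate exchanger Slc26a3 6.93 and 6.54 against 11.26 and 11.33. Together with Cftr, these are the genes of guanylin-controlled secretion and of intestinal chloride absorption.

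Of 21 genes of bile salt transport and sensing 5 were called higher and 4 lower (median 0.09), against backgrounds of 16.3% and 13.7%. Slc10a2, which takes up bile salts from bile and in the ileum, measured 10.89 and 10.74 against 5.66 and 5.96. The difference of 5.01 ± 1.32 (SE, adjusted p = 0.0156) had a wide error, and small intestine tissue read 11.94 and 6.18. Its call was lost without any one of the 4 arrays compared, at adjusted p between 0.0668 and 0.0786. The prostaglandin carrier Slco2a1 measured 12.87 and 12.80 against 8.84 and 8.21, and the bile salt exporter Abcc4 11.59 and 11.65 against 8.60 and 8.47. Abcc2, which exports conjugates into the lumen, measured 6.5 and 6.27 against 10.61 and 10.68. Slc51a, a subunit of the basolateral bile salt exporter, measured 6.23 and 6.25 against 8.32 and 8.31. Without any one of the 4 arrays compared 3 members were called higher and 2 lower, and in the organoid-only fit 8 were called higher.

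Of 20 measured hepatocyte genes 6 were called lower (median -0.04), against a background of 13.7%. The 2 called higher did not exceed the background of 16.3%, and the organoid-only fit called 5 higher. Ambp, a plasma protein that bile duct cells can also make, measured 13.57 on both arrays against 8.53 and 7.70, and Ttr was higher by 1.25. The urea cycle enzymes Otc and Cps1 measured 5.42 and 5.20 against 11.87 and 11.86, and 7.09 and 6.78 against 12.93 and 13.21, and small intestine epithelium also makes them. Alb measured 6.68 and 6.5 against 8.36 and 7.96, and its call (difference -1.58 ± 0.44, SE, adjusted p = 0.022) was lost without any one of the 4 arrays compared. G6pc and Afp differed by -5.08 and -2.93. Of 20 genes of cholesterol synthesis 1 was called, Stard4 at -1.5, which was lost without small intestine organoid replicate 2 (0.057), and without either gallbladder tissue array 1 was called higher and 3 lower. The organoid-only fit called 5 of the 20 higher and 8 lower.

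Markers of other cell types were mostly at a low level in both cultures. Of 16 fibroblast and smooth muscle markers Vim alone was called, with 7.75 and 7.77 against 10.43 and 10.04. Without either gallbladder tissue array 3 of the 16 were called higher, and without either small intestine tissue array 3 lower, while the organoid-only fit called 7 higher and 3 lower. Of 12 endothelial markers 0 were called, and 1 higher without either gallbladder tissue array, while the organoid-only fit called 5 higher and 1 lower. Of 16 immune cell markers 5 were called higher and 1 lower, against backgrounds of 16.3% and 13.7%. Cd68, a lysosomal protein of macrophages and other cells, measured 9.48 and 9.43 against 6.71 and 6.90, and Laptm5 9.60 and 9.36 against 6.96 and 6.80. Csf1r measured 7.85 and 8.03 against 6.48 and 6.24, and Itgam and Cd79b were higher by 0.82 and 0.98. The call of Cd79b was lost without differentiated replicate 1 or either small intestine organoid array. Ptprc, which defines leukocytes, read 6.56 and 6.55 against 6.21 and 6.26 (adjusted p = 0.472, or 0.0391 in the organoid-only fit). Lyz2 was lower, with 7.25 and 7.69 against 11.48 and 11.82. The part of such cells in the results was not tested. Of 11 measured pancreatic acinar, neural and mesothelial markers Msln and S100b were higher, by 4.29 and 2.01, and Upk3b was lower, at -1.72. These counts did not stand out from the backgrounds of 16.3% and 13.7%. The organoid-only fit called 2 of the 11 lower, and 1 was called higher when the dimmest 40 percent of genes were left out.

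Undifferentiated gallbladder organoids share the organ of the differentiated ones and the full medium of the shared protocol. The comparisons share arrays, so they are given side by side. Between differentiated and undifferentiated gallbladder organoids 559 genes (2.8%) were called higher and 384 (1.93%) lower. Of the 96 genes at least 4 log2 units above small intestine organoids, 18 were among those 559, and of the 137 at least 4 log2 units below, 4 were among those 384. The 8 with the largest difference from small intestine organoids among the genes called higher in both were Ecm1, Sptssb, Cnksr2, Cers3, Cyp2f2, Rasgrp3, Ctla2a and Ppbp. Rasgrp3, an activator of Ras, measured 10.83 and 10.77 in differentiated gallbladder organoids against 5.78 and 5.99 in small intestine organoids and 5.75 and 6.07 in undifferentiated gallbladder organoids. Ppbp, a platelet-type chemokine, measured 10.62 and 10.40 against 5.71 and 5.80, with 7.07 and 7.59 in undifferentiated organoids. Cers3, which makes ceramides of very long chains, measured 10.96 and 11.01 against 5.75 and 5.73, with 8.75 and 8.64. Cnksr2 and Ctla2a were higher than in small intestine organoids by 5.38 and 4.84, and than in undifferentiated ones by 1.66 and 1.62.

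In the lower direction the 8 genes were Arg2, Lgr5, Gm1123, Slc6a19, B4galt4, Ace, Axin2 and Efna3. Arg2, the mitochondrial arginase, measured 6.38 and 6.53 against 12.70 and 12.71, with 8.36 and 8.30 in undifferentiated organoids. Slc6a19, the neutral amino acid transporter of the brush border, measured 6.88 and 6.72 against 10.83 and 10.87, with 7.56 and 7.46. Ace, angiotensin-converting enzyme, measured 7.79 on both arrays against 11.25 and 10.74, with 9.05 and 8.99. Gm1123, B4galt4 and Efna3 differed from small intestine organoids by -5.22, -3.49 and -3.15 and from undifferentiated organoids by -1.20, -1.75 and -2.20. For each of these genes the undifferentiated organoids lay between the other 2 groups.

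A further 246 genes differed between undifferentiated gallbladder organoids and both other groups, while differentiated gallbladder and small intestine organoids lay within 0.5 log2 units of each other and were not called apart. The largest by the change between gallbladder cultures was Trf, the iron carrier transferrin, with 8.18 and 8.35 against 8.95 and 8.49, and 12.77 and 12.56 in undifferentiated organoids. Cyp1b1 measured 6.56 and 6.28 against 6.07 and 6.16, with 9.82 and 9.92. Tff3, the trefoil peptide of goblet cells, measured 12.83 and 12.69 against 13.33 and 13.18, with 9.33 and 9.64, and its difference of -0.50 had an interval from -1.29 to 0.30. Ms4a8a and Hkdc1 measured 11.34 and 11.02 against 11.48 and 11.29, and 9.87 and 9.90 against 9.61 and 9.82, with 8.05 and 8.31, and 7.29 and 7.28, in undifferentiated organoids. Ugt2a3, a conjugating enzyme, measured 11.15 and 11.01 against 11.44 and 11.26, with 8.53 and 8.52. Trpm5 and the neurofilament gene Nefl completed the 8. These genes were selected for a small difference, which does not show that the groups are alike. In the organoid-only fit Trf, Cyp1b1 and Ugt2a3 were called apart (adjusted p = 0.0238, 0.0457 and 0.0279), and with the 4 arrays compared alone Trf and Tff3 were (0.0469 and 0.00396).

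Liver organoids, another biliary-type culture of the full medium, differed from the differentiated gallbladder organoids in far fewer genes than small intestine organoids did, with 791 (3.97%) called higher and 757 (3.8%) lower in the gallbladder culture. Sox17 measured 10.65 and 10.22 in liver organoids and Muc1 13.36 and 13.43, and neither was called against differentiated gallbladder organoids (adjusted p = 0.469 and 0.677). The counts rest on comparisons that share the differentiated arrays, and the difference between them was not tested.

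Gallbladder and small intestine tissue share no array with the organoid comparison. Between the tissues 4135 genes (20.7%) were called higher in gallbladder and 4838 (24.3%) lower. Of the organoid calls 1405 were called higher in both, which is 43.2% of the organoid list and 34.0% of the tissue list, and 1473 were called lower in both, 53.9% and 30.4%. A further 469 and 275 genes, 14.4% and 10.1% of the organoid lists, were called in opposite directions. Across genes the differences correlated at Pearson's r = 0.496 and Spearman's rho = 0.341, where genes are not independent replicates. Of the 96 genes at least 4 log2 units higher in organoids, 72 were called higher in gallbladder tissue, 2 the other way and 22 not at all, and of the 137 lower ones 111, 6 and 20. Muc1 read 13.83 and 13.47 in gallbladder tissue against 5.87 and 7.55 in small intestine tissue, Sox17 10.66 and 10.23 against 7.21 and 7.07, Cdx2 7.02 and 7.35 against 12.23 and 11.64, and Sis 5.27 and 5.03 against 13.87 and 13.77. For these 4 genes the test of the organoid difference against the tissue difference was not called.

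**Figure D4:**
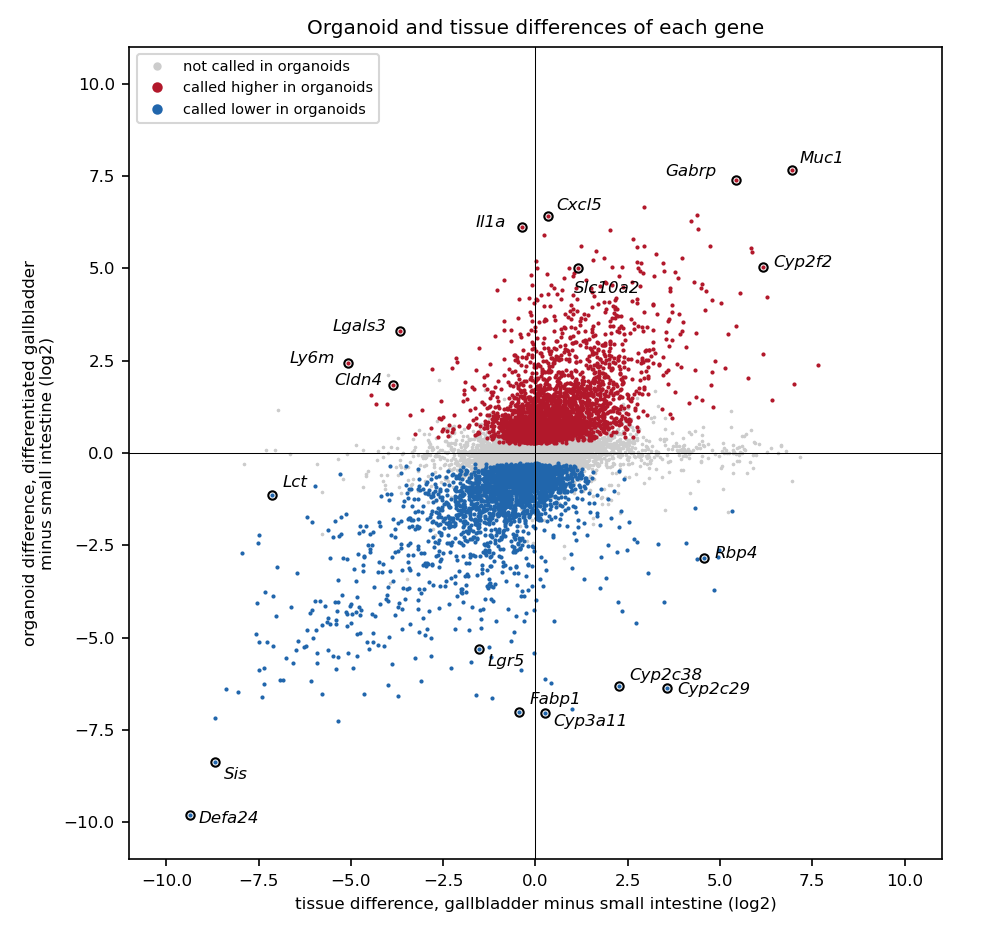
Each of the 19938 genes by its tissue difference, gallbladder minus small intestine, on the horizontal axis and its organoid difference, differentiated gallbladder minus small intestine, on the vertical axis, both in log2 units; red genes were called higher in organoids, blue genes lower and grey genes not called. Muc1 and Sis lie along the diagonal, Cxcl5 and Il1a stand high near a tissue difference of 0, and Cyp2c29 and Cyp2c38 lie low in organoids on the gallbladder side of the tissue axis.

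The organoid difference exceeded the tissue difference in 3748 genes (18.8%) and fell below it in 2573 (12.9%), by the interaction term of the same limma model. The 6321 genes called became 4095 without differentiated replicate 1 and 4200 without small intestine organoid replicate 2. Lgals3, the lectin galectin-3, was opposite in the 2 settings, with 11.96 and 11.90 against 8.23 and 9.04 in organoids and 8.84 and 8.72 against 12.17 and 12.76 in tissue. Cldn4 read 13.02 on both arrays against 11.32 and 11.04 in organoids and 8.28 and 8.27 against 11.84 and 12.45 in tissue. Cxcl5 read 6.18 and 5.62 against 5.70 and 5.44 in tissue, so that its high level was seen in gallbladder organoids and not in the organ. Lct, the milk sugar enzyme lactase, was near its lower end in both organoid sets, with 6.89 and 6.82 against 8.22 and 7.76, but read 13.19 and 13.26 in small intestine tissue. Ivl, Anxa8 and Msln were likewise within 0.14 log2 units of each other between the tissues.

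Among the genes below the tissue difference, Cyp2e1 and Cyp2c70 are strongly expressed in liver. Hepatocyte markers averaged 13.32 and 14.07 on the gallbladder tissue arrays, against 8.85 and 9.67 in small intestine tissue, and Alb read 14.30 on both gallbladder tissue arrays. Smooth muscle markers averaged 12.94 and 13.35 there. The part of these cells in the tissue comparison was not tested. Within organoids Cyp2e1 measured 5.88 and 6.22 against 9.15 and 8.60.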

How the data were processed

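RNA was hybridised to Affymetrix mouse gene arrays, 1 array per sample. The authors deposited log2 signals per probe set, made with RMA (robust multi-array average) per the submitters' processing notes, and its version is not given in the sources used here. No raw signals were used and no scan or batch labels were found. Of 35556 probe sets 21789 had 1 gene symbol, 1621 several and 12146 none listed. Of the first, 21698 were matched by gene number to a RefSeq table, which changed 0 symbols. For 999 genes with more than 1 probe set the brightest was kept, which left 19938 genes, with no filter on signal.

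The model was limma's (version 3.58.1, R 4.3.3), with 1 mean for each of the 7 groups over the 14 arrays (7 residual and 9.91 total degrees of freedom), after a test of the code on simulated data. Contrasts were 2-sided and adjusted by Benjamini-Hochberg over all genes, with calls at adjusted p below 0.05. An exact permutation test of 2 against 2 arrays cannot go below 0.333. Intervals are 95%. Groups came from sample titles. The labels do not say whether samples with the same replicate number were paired, and no pairing was used.

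Named genes were the 15 with the largest called difference in each direction, up to 5 of each of 33 lists by absolute difference, called regional transcription factors, 21 genes chosen as always named, and 8 in each direction called the same way against undifferentiated organoids or with the largest organoid minus tissue difference, plus 8 where differentiated gallbladder and small intestine organoids came close. Any further gene was picked with its values in view, including Vil1, Slc39a4, Fabp7, Abca1, Fabp5, Sult1c2, Mmp7, Habp2, Nupr1, Atoh1, St3gal6, Sytl2, Neurog3, Ascl2, Cd44, Ccnd1, Cdkn2a, Cdkn2b, Anxa10, Muc3, Duoxa2, Reg3a, Pigr, Birc5, Trp63, Slc26a9, Aqp1, Ttr, Ptprc, Wnt3, Wnt4, Wnt11 and Cp. Members and lists were chosen with earlier results of these data known. Alternatives were other normalisations, a filter on dim genes, mean probe sets, fewer arrays in the fit, array weights, another variance prior, a minimum difference of 1 log2 unit, the leaving out of single arrays, and a replicate block.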

Additional observations from a re-analysis of the deposited data

Results flagged for a closer look

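The organoid difference (differentiated gallbladder minus small intestine organoids) differed from the tissue difference (gallbladder minus small intestine tissue) by limma's interaction term in 16 named genes, the 8 with the largest value in each direction among the genes called in organoids. In the higher direction the organoid difference minus the tissue difference was 7.52 for Ly6m, 6.98 for Lgals3, 6.51 for Il1a, 6.09 for Cxcl5, 6.03 for Adamdec1, 5.99 for Lct, 5.71 for Cldn4 and 5.68 for Aspa. Ly6m, Lgals3, Adamdec1 and Cldn4 were called higher in gallbladder organoids and lower in gallbladder tissue. Adamdec1 measured 7.90 and 7.72 against 6.19 and 6.30 in organoids and 6.77 and 6.90 against 11.10 and 11.50 in tissue, and Ly6m 8.94 and 9.06 against 6.76 and 6.39 in organoids and 7.03 and 6.76 against 11.70 and 12.26 in tissue. Aspa was high in both tissues, with 12.42 and 11.91 against 12.18 and 11.67, and low in small intestine organoids alone, with 6.84 and 5.89.

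In the lower direction the value was -9.94 for Cyp2c29, -8.58 for Cyp2c38, -8.56 for Cyp2c70, -7.92 for Fbp1, -7.78 for Cyp2e1, -7.62 for Ces1c, -7.51 for Rgn and -7.41 for Rbp4. Each of these is abundant in liver tissue, where the lowest of the 16 readings was 11.15 (Cyp2c38). The gallbladder tissue arrays differed from each other for several of them, such as Cyp2c29 with 10.15 and 13.07, and small intestine tissue read 5.29 and 10.79 for that gene. The part of hepatocyte RNA in gallbladder tissue and of these differences between tissue replicates was not tested.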

How the results depend on the processing

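Of 233 genes named, with Cdkn1b and Cdkn1c not counted, 218 were called. Of these, 196 kept their call in every alternative other than the minimum difference of 1 log2 unit and the filter on dim genes. That filter left 195 of the called genes to test, of which 195 kept their call in it, and 23 had no value there. Of 66 list counts (higher and lower in each of the 33 lists), 22 moved by over 1.5 times when the 4 arrays compared were fitted alone, 21 with the 8 organoid arrays and 19 with array weights. Counts of genes called higher and lower were 5613 and 4514 when the 4 arrays compared were fitted alone, 5583 and 4541 with the 8 organoid arrays, 5906 and 4621 with array weights, and 618 and 539 when a difference of at least 1 log2 unit was tested, where the count of organoid minus tissue calls was 733. Leaving out 1 array at a time gave 2135 to 3729 genes called higher, 1831 to 3109 called lower and 4095 to 6976 organoid minus tissue calls. With quantile normalisation Sox2 stood at -0.0285 and Trp63 at -0.006, with arrays centred on their medians Trpm5 stood at -0.0397, and with arrays left out Trpm5 ranged from -0.4348 to 0.4637; the reported fit called none of these 3 genes, and the cause was not tested. With a replicate block 3196 genes were called higher, 2708 lower and 6209 by organoid minus tissue. The same-numbered arrays of the 2 groups correlated at 0.071 in their deviations. With 2 arrays per group this value cannot show whether the samples were paired, and the labels do not say. The 2 arrays per group limit what can be called, and signal over background was not available.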
